A study of Mus musculus with 4 samples.

Results

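The 10 genes described here were 4 ephrins (Efnb1, Efnb2, Efna1 and Efna5) and 6 Eph receptors (Ephb2, Ephb3, Ephb4, Epha2, Epha3 and Epha4). They were matched by symbol and read in 4 single-cell libraries of mouse long bone. They were 10 of the 22 ephrin and Eph genes and of the 53703 features in the tables. The metaphyses of the femur and tibia were the source of all 4 libraries, from C57/BL6 mice at 12 weeks, after depletion of lineage-positive, CD45+ and CD117+ cells. The 2 mutant libraries came from Lats2iECKO mice, which carried floxed Lats2 alleles and the inducible Cdh5(PAC)-CreERT2 driver, active in endothelial cells (ECs), and had received tamoxifen as young mice. The 2 control libraries came from Cre-negative littermates given the same tamoxifen, labelled untreated in the deposit, and the endothelial reporter Cdh5(PAC)-mT/nG was bred into mutants and controls. The study calls the libraries biological replicates. The labels do not give the sex or the number of the animals in each one.

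Ephrins are membrane-bound ligands and Eph receptors are receptor tyrosine kinases, so the pair signals where cells touch. Binding starts forward signalling in the cell with the receptor and reverse signalling in the cell with the ephrin, and often pushes cells apart. In vessels, ephrin-B2 marks arteries and EphB4 marks veins, and in bone the same pair also links osteoclasts with osteoblasts. LATS2 is a kinase of the Hippo pathway that restrains YAP and TAZ, which act on genes through TEAD factors.

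Libraries held between 69636600 and 85899079 UMIs (unique molecules counted) and between 5749 and 7649 barcodes with at least 1000 UMIs and 800 features, and 4291 to 5838 barcodes per library entered a class set by marker genes. ECs numbered 533 and 658 in the mutants against 831 and 820 in the controls, with 5019646 to 6030612 UMIs per library. In ECs the CreERT2 transcript stood at 54.2 and 49.6 CPM (counts-per-million, over all UMIs of that class in that library) in the mutants and at 0.678 and 0.872 in the controls. Lats2 stood at 90.4 and 95.8 against 132.8 and 119.8 CPM, but reads outside the deleted part count as well, so this level is a weak check of the deletion. Pairs of libraries shared 7 to 22 barcodes, at most 0.289% of the smaller library.

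ECs were split into arterial ECs (Gja4 or Gja5 with another arterial marker), bone marrow ECs (bmECs, Stab2 with other sinusoidal markers), metaphyseal ECs (mpECs, at least 2 of Ramp3, Aplnr and Gpihbp1), Vwf+ ECs (at least 2 of Vwf, Fmo2 and Selp) and ungated ECs, the rest. Ungated ECs met none of these gates or were undecided. Undecided cells met the arterial or sinusoidal gate without more markers of that type than of the other. Others had equal UMIs of mpEC and Vwf-type markers. The study calls Fmo2+ ECs arteriole-like. The mpEC and Vwf+ gates took only cells outside the arterial and sinusoidal gates, and Selp was added to Vwf and Fmo2 from the study. For mpECs, Gpihbp1 was added to Ramp3 and Aplnr from the study. Its mpEC marker Nox4, which it gives as specific to mutants, was left out. The mpECs gated here need not match those of the study. The Vwf+ ECs gated here held Gja4 at no more than 2.25 CPM, a level partly set by this order of gates. In them the venous genes Ackr1 and Nr2f2 stood at 309 to 586 and 350 to 524 CPM, so the cells are named by their gate. None of the 10 genes was a gate marker.

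The counts across ECs rested on unequal mixtures. BmECs were 16.3% and 15.2% of mutant ECs against 36.8% and 37.8% of control ECs, and Vwf+ ECs were 22.1% and 22.9% against 8.54% and 9.02%. Values are therefore given within each subtype. The sums do not tell fewer expressing cells from less RNA per cell, and the share of cells with a count was not compared here.

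Where the genes lie is given on GRCm39, the build of the files, from the GENCODE annotation. Efnb2 lies at chr8:8667226-8711249 (minus strand), Efnb1 at chrX:98179680-98205454 (plus) and Ephb4 at chr5:137348274-137376931 (plus). Efna1 lies at chr3:89179037-89188449 (minus), Efna5 at chr17:62909956-63188312 (minus), Ephb2 at chr4:136374850-136563351 (minus) and Ephb3 at chr16:21023495-21042057 (plus). Epha2 lies at chr4:141028540-141056695 (plus), Epha3 at chr16:63363897-63684538 (minus) and Epha4 at chr1:77343822-77492816 (minus). Each table row counts reads over the exons and introns of the whole gene.

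The sequences just before the RefSeq start sites of Efnb2, Efnb1 and Ephb4 are shown because these 3 genes fell together in mutant ECs. Capitals mark GGAATG, the core letters that TEAD factors bind, searched on both strands (CATTCC on the other) in the 250 bases before each start site. Bases that GENCODE places inside the gene are left out, and positions were found by an exact match of the RefSeq sequence on GRCm39.
Efnb2, chr8:8711250-8711492, minus strand: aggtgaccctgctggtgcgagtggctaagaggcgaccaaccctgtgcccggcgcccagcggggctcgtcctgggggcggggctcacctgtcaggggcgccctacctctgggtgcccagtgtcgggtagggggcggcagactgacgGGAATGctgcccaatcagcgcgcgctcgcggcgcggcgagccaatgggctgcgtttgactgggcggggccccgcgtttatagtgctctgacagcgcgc
Efnb1, chrX:98179417-98179666, plus strand: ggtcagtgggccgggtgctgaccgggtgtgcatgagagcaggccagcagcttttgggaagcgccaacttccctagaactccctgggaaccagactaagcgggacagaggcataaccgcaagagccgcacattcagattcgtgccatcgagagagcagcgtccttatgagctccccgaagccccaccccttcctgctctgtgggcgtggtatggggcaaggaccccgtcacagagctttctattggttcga
Ephb4, chr5:137348121-137348273, plus strand: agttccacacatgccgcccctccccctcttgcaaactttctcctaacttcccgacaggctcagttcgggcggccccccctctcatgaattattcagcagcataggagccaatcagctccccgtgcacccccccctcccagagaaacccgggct

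The Efnb2 window held these letters at 1 place, 99 bases before the start site, and the Efnb1 and Ephb4 windows at none. Of the 10 genes, 3 (Efnb2, Epha2 and Epha3) had the letters in such a window, and 12.6% of all 32851 RefSeq windows of this length did. A match of letters is a description and not a site.

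In control ECs the ephrins and receptors divided the vessel types (the map of control levels). Each arterial or sinusoidal contrast set that subtype against the mean of the other 3 gated subtypes in the 2 control libraries, with the library as a term since the sums of all subtypes share those 2 libraries, with edgeR's quasi-likelihood test and Benjamini-Hochberg adjustment over all genes tested, called at an adjusted p of at most 0.05. In arterial ECs 6 of the 7 tested members were called, 5 higher and 1 lower, where 21.6% of all genes tested were called. In bmECs 5 of 7 were called, 2 higher and 3 lower, where 28.6% of all genes were.

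**Figure D1:**
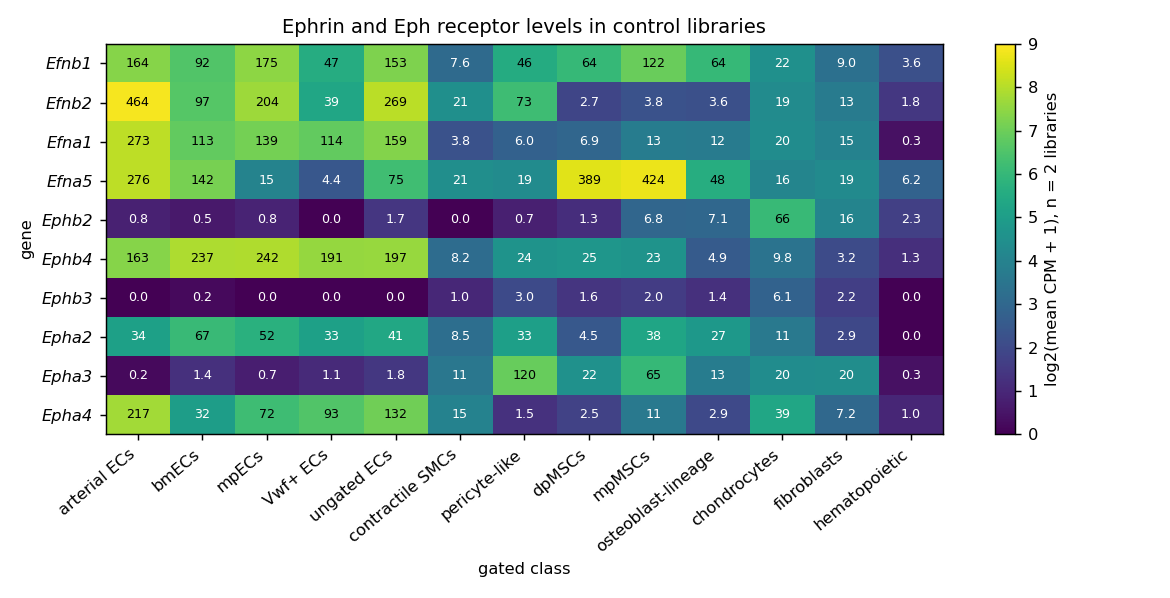
Mean level of each of the 10 genes in each gated class over the 2 control libraries, in CPM, with colour on a log2(mean CPM + 1) scale. Efnb2 and Epha4 are highest in arterial ECs, Efna5 in dpMSCs, mpMSCs and arterial ECs, Epha3 in pericyte-like mural cells, and Ephb2 and Ephb3 are near 0 in all ECs.

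Efnb2, encoding the arterial ligand ephrin-B2, was at 472 and 456 CPM in control arterial ECs, 292 and 246 in ungated ECs, 198.5 and 210.4 in mpECs, 103 and 91.6 in bmECs and 37.7 and 40.1 in Vwf+ ECs. No range overlapped the next. It was higher in arterial ECs than in the other gated subtypes by 2.32 ± 0.0956 on the log2 scale (SE, adjusted p = 1.66e-12, edgeR), and lower in bmECs (-0.71 ± 0.117, adjusted p = 9.1e-05). Ephb4, encoding its receptor EphB4, varied less. It ran from 156 and 170.0 CPM in arterial ECs through 204 and 178 in Vwf+ ECs and 195 and 198 in ungated ECs to 249 and 225 in bmECs and 229 and 256 in mpECs, where the steps from arterial to Vwf+ ECs and from ungated ECs to bmECs had no overlap and the others did. Only the arterial contrast was called for it (-0.47 ± 0.105, adjusted p = 0.00257, edgeR). In bmECs it gave 0.23 ± 0.0929 (adjusted p = 0.0744).

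Efnb1, encoding ephrin-B1, was at 147 and 182 CPM in control arterial ECs, 146.5 and 204 in mpECs and 170.4 and 136 in ungated ECs, which overlapped, and lower in bmECs (86.3 and 98.5) and Vwf+ ECs (48.8 and 44.5). Its arterial contrast was 0.83 ± 0.117 (adjusted p = 2.22e-05, edgeR). Efna1, encoding ephrin-A1, stood at 282 and 264 CPM in arterial ECs and at 106 to 179 CPM in the other EC classes, with an arterial contrast of 1.149 ± 0.0955 (adjusted p = 2.65e-08) and a sinusoidal one of -0.58 ± 0.1003 (adjusted p = 0.000159).

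Efna5, encoding ephrin-A5, had the widest spread among EC subtypes: 309 and 242 CPM in arterial ECs, 138 and 145 in bmECs, 79.5 and 70.9 in ungated ECs, 15.1 and 15.2 in mpECs, and 8.87 and 0 in Vwf+ ECs. Both contrasts were called (3.67 ± 0.185 arterial, adjusted p = 2.22e-11, and 2.37 ± 0.207 sinusoidal, adjusted p = 3.4e-08, edgeR). With 1 more subtype marker required they were 5.69 and 4.40. The 2 control libraries together held 4 UMIs of Efna5 in Vwf+ ECs and 20 in mpECs. The size of both contrasts therefore depends on classes near 0, and the bmEC level itself was below the arterial one. Among the EphA receptors, Epha4 was highest in arterial ECs (230.1 and 204 CPM) and lowest in bmECs (32.4 and 30.9), with contrasts of 1.85 ± 0.116 (adjusted p = 4.8e-10) and -1.88 ± 0.141 (adjusted p = 4.46e-09). Epha2 was highest in bmECs (69.9 and 63.8 CPM against 33.2 and 34.6 in arterial ECs). Its sinusoidal contrast was 0.74 ± 0.161 (adjusted p = 0.00148), lost with DESeq2 (adjusted p = 0.0769).

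Ephb2, Ephb3 and Epha3 were nearly absent from ECs, with 23, 3 and 29 UMIs in all ECs of the 4 libraries, and were not tested there. Empty droplets held 11.4 to 16.6 CPM of Ephb2 and 9.86 to 20.9 CPM of Epha3. Free RNA made up an estimated 0.968% to 7.48% of the UMIs of a class other than the hematopoietic one, which gave at most 4.17 CPM of any of the 10 genes in ECs. Ephb2 was highest in chondrocytes, at 66.6 and 64.8 CPM in the controls and 34.0 and 35.8 in the mutants, a class in which no genotype test was run. Ephb3 did not pass 6.46 CPM in any class or library.

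In mutant ECs, the ephrin-B ligands and EphB4 fell. Across all ECs, 3 of the 7 tested members were called, all lower (Efnb2, Efnb1 and Ephb4), where 33.2% of the 14427 genes tested were called. Efnb2 was at 104 and 109 CPM in the mutants against 218 and 194 in the controls, Efnb1 at 67.1 and 70.6 against 114 and 127, and Ephb4 at 136 and 143 against 215 and 210.0. No mutant library reached the lower control in any of the 3. The share of all genes without overlap was not counted, so non-overlap of genotypes here and below is a description only. The fold changes were -0.86 ± 0.0852 (adjusted p = 8.81e-05), -0.71 ± 0.0842 (adjusted p = 0.00024) and -0.51 ± 0.0763 (adjusted p = 0.000858) on the log2 scale (edgeR). These 3 calls were kept in each of the 12 alternatives run. The other 4 tested members gave -0.15 ± 0.102 (Efna1), -0.0027 ± 0.0788 (Efna5), 0.0994 ± 0.0829 (Epha2) and -0.0513 ± 0.0886 (Epha4).

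**Figure D2:**
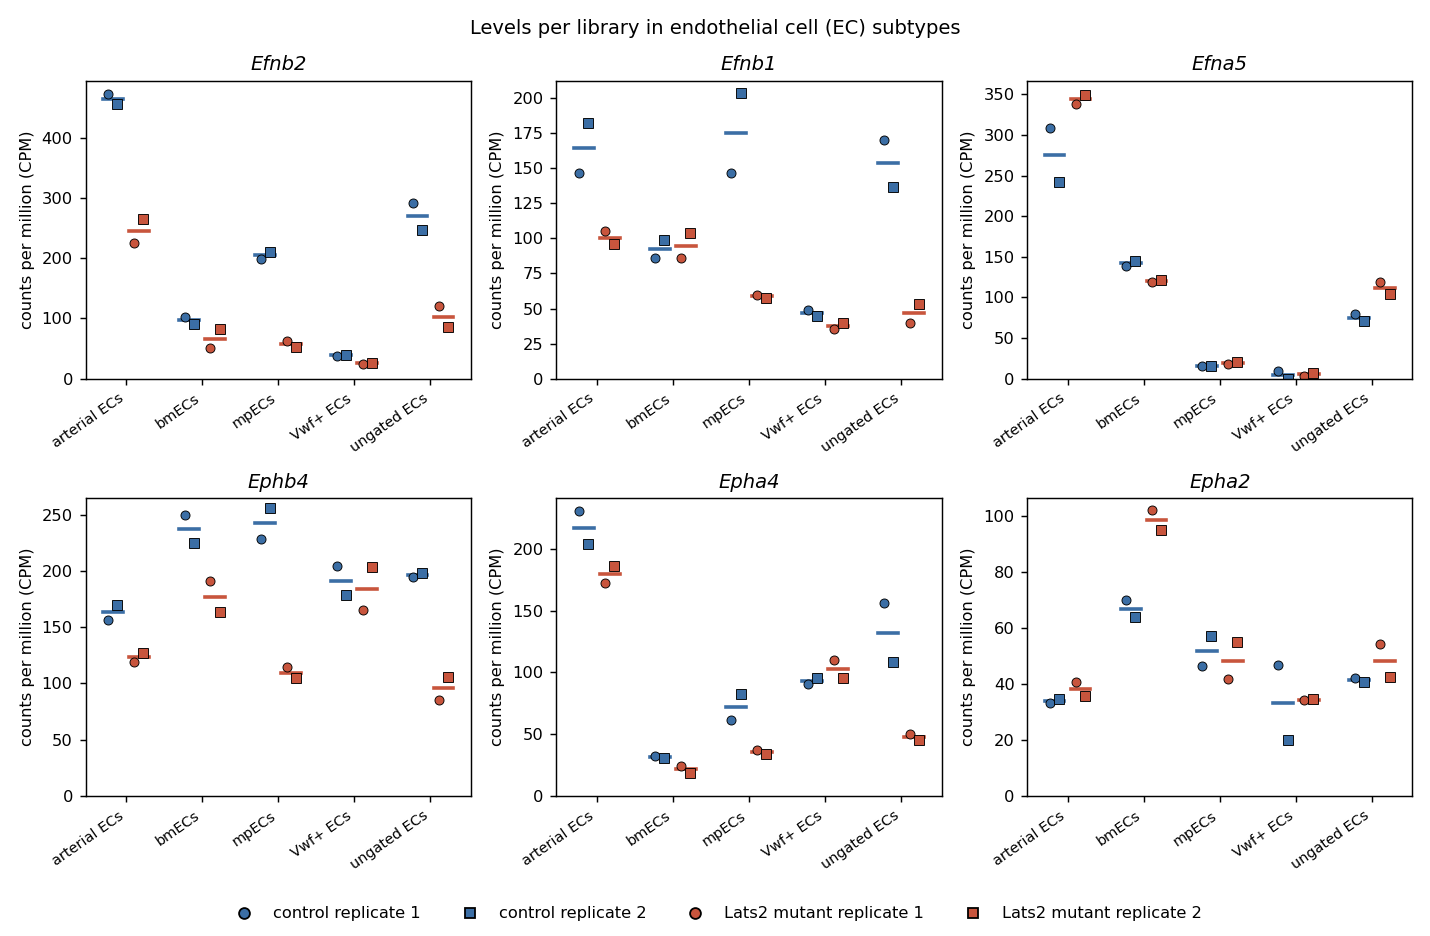
CPM of 6 genes in each EC subtype, with a point for each library and a bar for the mean of the 2 libraries of a genotype. The mutants lie below the controls for Efnb2, Efnb1, Ephb4 and Epha4 in mpECs and ungated ECs, whereas Efnb1 overlaps in bmECs.

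In mpECs, the type of the metaphyseal capillaries, 4 of 7 tested members fell, where 27.1% of all genes were called. Efnb2 was at 62.3 and 53.0 CPM in the mutants against 198.5 and 210.4 in the controls (-1.73 ± 0.188, adjusted p = 2.06e-08, edgeR). Efnb1 was at 59.7 and 57.8 against 146.5 and 204 CPM (-1.46 ± 0.1996, adjusted p = 1.37e-06), and Ephb4 at 114 and 105 against 229 and 256 CPM (-1.04 ± 0.169, adjusted p = 1.82e-05). The genotypes did not overlap in these genes. Epha4, a receptor that binds ephrins of both classes, was at 37.0 and 33.7 against 61.6 and 82.5 CPM (-0.93 ± 0.260, adjusted p = 0.00745). That call was lost with DESeq2, without mutant replicate 2 (-0.88) and without control replicate 2 (-0.73). Efna1 (-0.0748 ± 0.177), Epha2 (0.0272 ± 0.263) and Efna5 (0.45 ± 0.418) were not called.

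The cells in the mpEC gate also differed otherwise between genotypes. Median UMIs per cell were 8217 and 8007 in the mutants against 5356 and 4587 in the controls, Apln, a tip-cell gene outside the gate, was at 796 and 821 against 46.5 and 53.9 CPM, and the gate marker Aplnr was at 290 and 281 against 527 and 441 CPM. Sinusoidal markers summed to 216 and 237 against 680.3 and 584 CPM, and pericyte-like markers to 62.3 and 53.9 against 256 and 197 CPM. The part of these differences in the result was not tested. Requiring all 3 gate markers left 17 and 18 mutant cells, and there no member was called: Efnb2 was then -1.07 (adjusted p = 0.319), Efnb1 -0.92 (adjusted p = 0.380), Ephb4 -0.70 (adjusted p = 0.406) and Epha4 0.12 (adjusted p = 0.933). With so few cells only 0.99% of all genes were called, against 27.1% in the main fit.

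In ungated ECs 5 of 7 tested members were called, where 18.1% of all genes were. Efnb1 was at 39.6 and 53.4 CPM against 170.4 and 136 (-1.60 ± 0.214, adjusted p = 0.000307, edgeR), Efnb2 at 119.8 and 85.7 against 292 and 246 (-1.28 ± 0.187, adjusted p = 0.000623), Epha4 at 50.01 and 45.1 against 156 and 108 (-1.37 ± 0.226, adjusted p = 0.00133) and Ephb4 at 85.4 and 106 against 195 and 198 (-0.92 ± 0.1698, adjusted p = 0.00248). The genotypes did not overlap for any of the 4. These calls were kept in all 13 alternatives. With 1 more subtype marker, however, this class took in cells that no longer met another gate. It grew from 119 and 154 to 221 and 292 mutant cells, and from 138 and 133 to 247 and 259 control cells. That alternative was therefore no stricter test of ungated ECs. Efna5 rose, at 119 and 104 against 79.5 and 70.9 CPM (0.67 ± 0.1998, adjusted p = 0.0346), but this call was lost in 5 of 13 alternatives. They were DESeq2, 1 more subtype marker, and without mutant replicate 1 (0.57), control replicate 1 (0.75) or control replicate 2 (0.60). Over all alternatives the Efna5 value ran from 0.27 to 1.11. Efna1 (-0.41 ± 0.193) and Epha2 (0.32 ± 0.266) were not called. In these cells, too, Apln was higher in the mutants (687 and 953 against 95.8 and 122 CPM). The 6 arterial markers summed to 248 and 297 CPM in the mutants against 532 and 585 in the controls, and the 6 sinusoidal ones to 224 and 228 against 428 and 388 CPM, differences whose part in the result was not tested. Further, osteoblast markers summed to 6833 CPM in mutant replicate 1 against 163 to 665 in the other libraries.

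In arterial ECs, 3 of 7 tested members were called, 2 lower and 1 higher, where 16.3% of all genes were called. Efnb2 fell from 472 and 456 CPM in the controls to 225 and 265 in the mutants (-0.83 ± 0.103, adjusted p = 8e-05, edgeR), and kept its call in all 13 alternatives. Among mutant EC classes it was still highest in arterial ECs. The 6 arterial markers were lower as well, with a sum of 1674 and 1728 CPM in the mutants against 2119 and 2032 in the controls, and the gate marker Gja4 was at 311 and 376 against 455 and 511 CPM. Their part in the result was not tested. Efnb1 was at 105 and 95.6 against 147 and 182 CPM (-0.62 ± 0.141, adjusted p = 0.00753), a call lost with DESeq2 and without control replicate 2 (-0.47). Efna5 was higher, at 339 and 349 against 309 and 242 CPM (0.41 ± 0.117, adjusted p = 0.0287), a call lost with DESeq2, without control replicate 2 (0.24) and without mutant replicate 2 (0.38). Ephb4 (-0.31 ± 0.126, adjusted p = 0.112), Efna1 (-0.29 ± 0.122, adjusted p = 0.127), Epha4 (-0.18 ± 0.117) and Epha2 (0.25 ± 0.204) did not pass.

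BmECs, the sinusoidal cells, gave 1 call in 7 tested members, where 9.4% of all genes were called. Epha2, a receptor chiefly for ephrin-A1, was at 102 and 94.8 CPM in the mutants against 69.9 and 63.8 in the controls, with no overlap (0.62 ± 0.136, adjusted p = 0.0225, edgeR). It was not called with DESeq2 or without control replicate 2 (0.54). In the same cells the 6 sinusoidal markers summed to 4186 and 3444 CPM in the mutants against 5345 and 5120.0 in the controls, and Apln was at 178 and 209.8 against 20.8 and 23.6 CPM. Fibroblast markers summed to 1060.4 and 415 against 58.4 and 227 CPM, with 1 of 12 markers at 10 CPM or more in each mutant library. The part of these differences was not tested. Efnb2 was at 51.0 and 81.6 against 103 and 91.6 CPM (-0.47 ± 0.195, adjusted p = 0.159), with a wide gap between the mutant libraries, and Ephb4 at 191 and 163 against 249 and 225 CPM (-0.36 ± 0.125, adjusted p = 0.0972). Efnb1 overlapped between genotypes, at 85.7 and 104 against 86.3 and 98.5 CPM (0.1000 ± 0.149, adjusted p = 0.721). Epha4 (-0.51 ± 0.241), Efna5 (-0.18 ± 0.122) and Efna1 (0.1000 ± 0.146) were not called.

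In Vwf+ ECs none of the 6 tested members was called with edgeR or DESeq2, none had an unadjusted p under 0.05, and 2.26% of all genes were called. Ephb4 overlapped, at 165 and 203 CPM against 204 and 178 (-0.0326 ± 0.163). Efnb2 was at 24.7 and 26.2 against 37.7 and 40.1 CPM (-0.59 ± 0.296, adjusted p = 0.366), the lowest level of this gene among ECs. Efna1 (-0.36 ± 0.182), Efnb1 (-0.29 ± 0.258), Epha4 (0.15 ± 0.184) and Epha2 (0.0586 ± 0.357) were not called either.

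**Figure D3:**
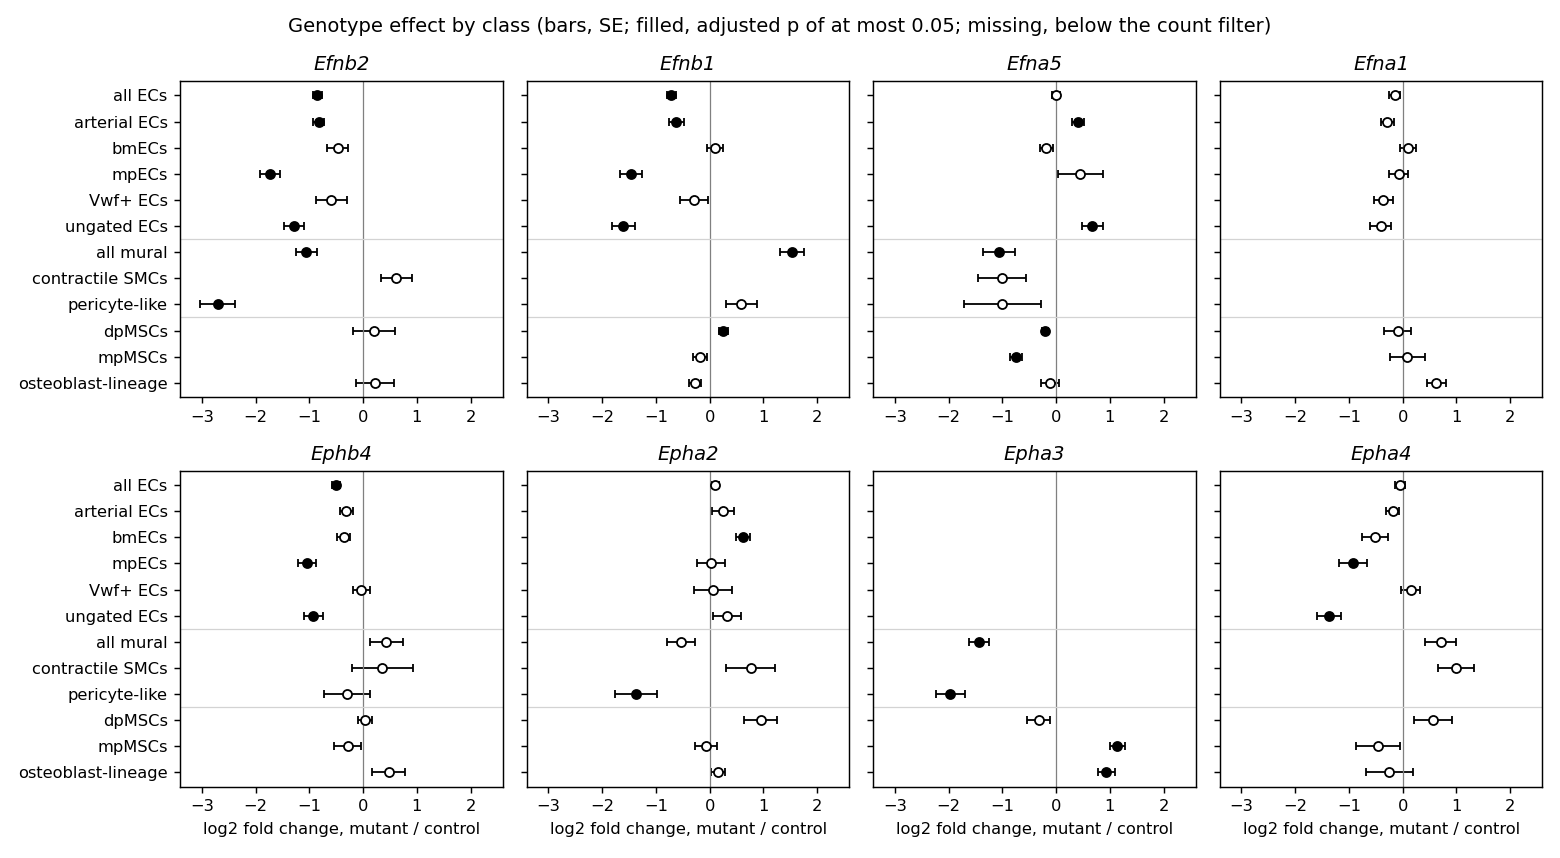
Log2 fold change of mutant over control for 8 genes in each class, with SE bars, filled where the adjusted p was at most 0.05 and missing where the gene did not pass the count filter. Efnb2, Efnb1 and Ephb4 lie left of 0 in all ECs, arterial ECs, mpECs and ungated ECs, and Epha3 lies left in pericyte-like cells and right in mpMSCs and osteoblast-lineage cells.

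The difference of the genotype effect between subtypes was tested directly, each gated subtype against the mean effect in the other 3, with the library as a term since subtypes share libraries. In mpECs 3 of 7 members were called, where 6.93% of all genes were: Efnb1 (-1.19 ± 0.205, adjusted p = 0.00121, edgeR), Efnb2 (-1.10 ± 0.216, adjusted p = 0.0034) and Ephb4 (-0.81 ± 0.176, adjusted p = 0.00742). In bmECs Efnb1 alone was called (0.89 ± 0.186, adjusted p = 0.0406), where 0.397% of all genes were. In arterial ECs no member was called or had an unadjusted p under 0.05 (1.72% of all genes called), and in Vwf+ ECs no member was called with edgeR or DESeq2 while 2 had an unadjusted p under 0.05 (3.14% of all genes called). None of the 4 differences was called without control replicate 2, a fit with 1 control library. There Efnb1 and Efnb2 in mpECs were -1.03 and -1.05. With 1 more subtype marker required none was called either, where 0.225% of all genes were called in mpECs and 0% in bmECs. Without mutant replicate 2 the mpEC difference of Efnb1 alone was called. The bmEC difference of Efnb1 was also lost with DESeq2 and without control replicate 1.

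**Figure D4:**
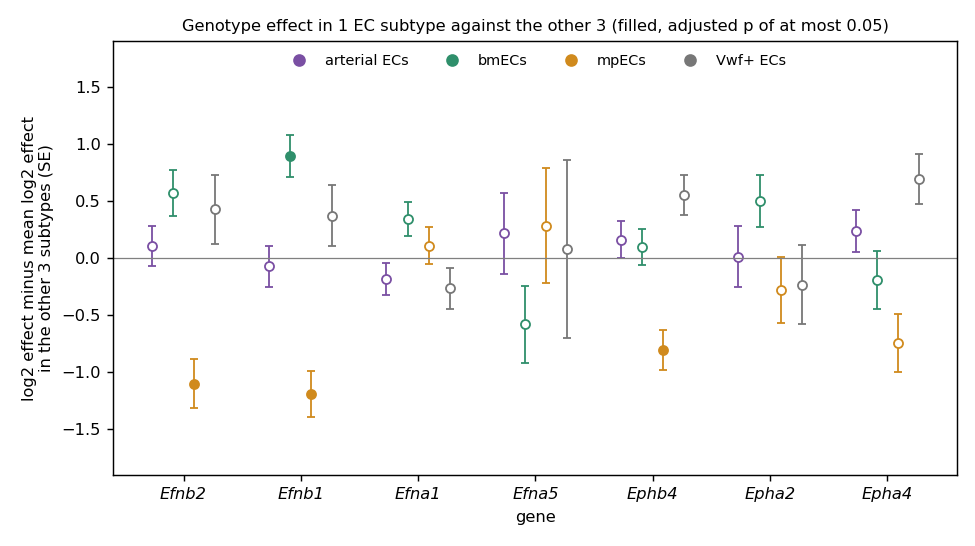
Genotype effect in each gated EC subtype minus the mean effect in the other 3, on the log2 scale with SE bars, for the 7 genes tested. Filled points have an adjusted p of at most 0.05: Efnb2, Efnb1 and Ephb4 in mpECs lie below 0 and Efnb1 in bmECs above 0.

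Mural cells wrap the vessels, and the ephrin-B2 they carry is needed for their assembly along vessel walls. Across all mural cells, 4 of 7 tested members were called, where 30.7% of all genes were: Efnb1 rose (1.53 ± 0.224, adjusted p = 2.87e-05, edgeR), and Epha3 (-1.43 ± 0.188, adjusted p = 8.21e-06), Efnb2 (-1.06 ± 0.198, adjusted p = 0.000403) and Efna5 (-1.05 ± 0.297, adjusted p = 0.0109) fell. The Efna5 call was lost with DESeq2, with stricter barcodes and without mutant replicate 2 (-0.72). It was not called within pericyte-like cells (-1.0004 ± 0.712) or contractile SMCs (-1.0025 ± 0.444), where its fold changes were near the pooled one. Epha4 (0.70 ± 0.286, adjusted p = 0.0713), Epha2 (-0.54 ± 0.266) and Ephb4 (0.43 ± 0.308) were not called. The mixture changed too. Pericyte-like cells (led by Rgs5, Kcnj8 and like markers) were 62.1% and 62.6% of mutant mural cells and 22.9% and 21.6% of control ones, and contractile smooth muscle cells (SMCs, Myh11 and Acta2) 28.4% and 27.1% against 64.2% and 62.5%. The study regards the Myh11- cells enriched among mutant SMCs as likely myofibroblasts, and whether the pericyte-like gate holds them was not tested.

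Within these subtypes the rise of Efnb1 was not called. It was at 57.1 and 66.1 CPM in mutant pericyte-like cells against 61.4 and 30.4 in control ones (0.59 ± 0.289, adjusted p = 0.185, edgeR), and at 4.10 to 11.1 CPM in contractile SMCs of all libraries, where it was not tested. Pericyte-like cells had 3 of 6 tested members called, all lower, where 18.8% of all genes were. Efnb2 was at 12.3 and 7.73 CPM against 70.2 and 76.0 (-2.70 ± 0.324, adjusted p = 4.69e-05), Epha3, a receptor for ephrin-A ligands, at 32.3 and 21.9 against 96.5 and 143 (-1.97 ± 0.269, adjusted p = 0.000143), and Epha2 at 8.86 and 13.3 against 35.1 and 30.4 (-1.37 ± 0.397, adjusted p = 0.0277). For each gene both mutants lay well under both controls. The Epha2 call, on 10 to 31 UMIs per library, was lost with DESeq2 and without mutant replicate 1, mutant replicate 2 or control replicate 1 (-1.11 to -1.69). Ephb4 (-0.30 ± 0.426) and Efna5 (-1.0004 ± 0.712, adjusted p = 0.382, edgeR) were not called.

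The pericyte-like gate held cells whose marker levels differed between genotypes. Its 6 markers summed to 6355 and 7399 CPM in the mutants against 19839 and 20554 in the controls, Rgs5 stood at 4463 and 5453 against 16377 and 16610 CPM, and markers of dpMSCs summed to 2695 and 2944 against 789 and 1092 CPM. Myh11 in this gate stood at 195 and 186 CPM in the mutants against 1049.7 and 1164.5 in the controls. The gate may thus hold different kinds of cells in the 2 genotypes. Only 55 and 57 control cells were in it. How much of the change in Efnb2 and Epha3 moved with this was not tested. In contractile SMCs, whose 6 markers summed to 17746 to 21724 CPM, 0 of 5 tested members were called with edgeR or DESeq2, 3 had an unadjusted p under 0.05, and 6.12% of all genes were called. Efnb2 there was at 31.2 and 33.0 CPM in the mutants against 22.2 and 20.5 in the controls (0.62 ± 0.286, adjusted p = 0.257), on the other side of 0 from pericyte-like cells. Epha4 gave 0.99 ± 0.330 (adjusted p = 0.0913) and Efna5 -1.0025 ± 0.444 (adjusted p = 0.229), with Epha2 at 0.76 ± 0.455 and Ephb4 at 0.36 ± 0.569.

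**Figure D5:**
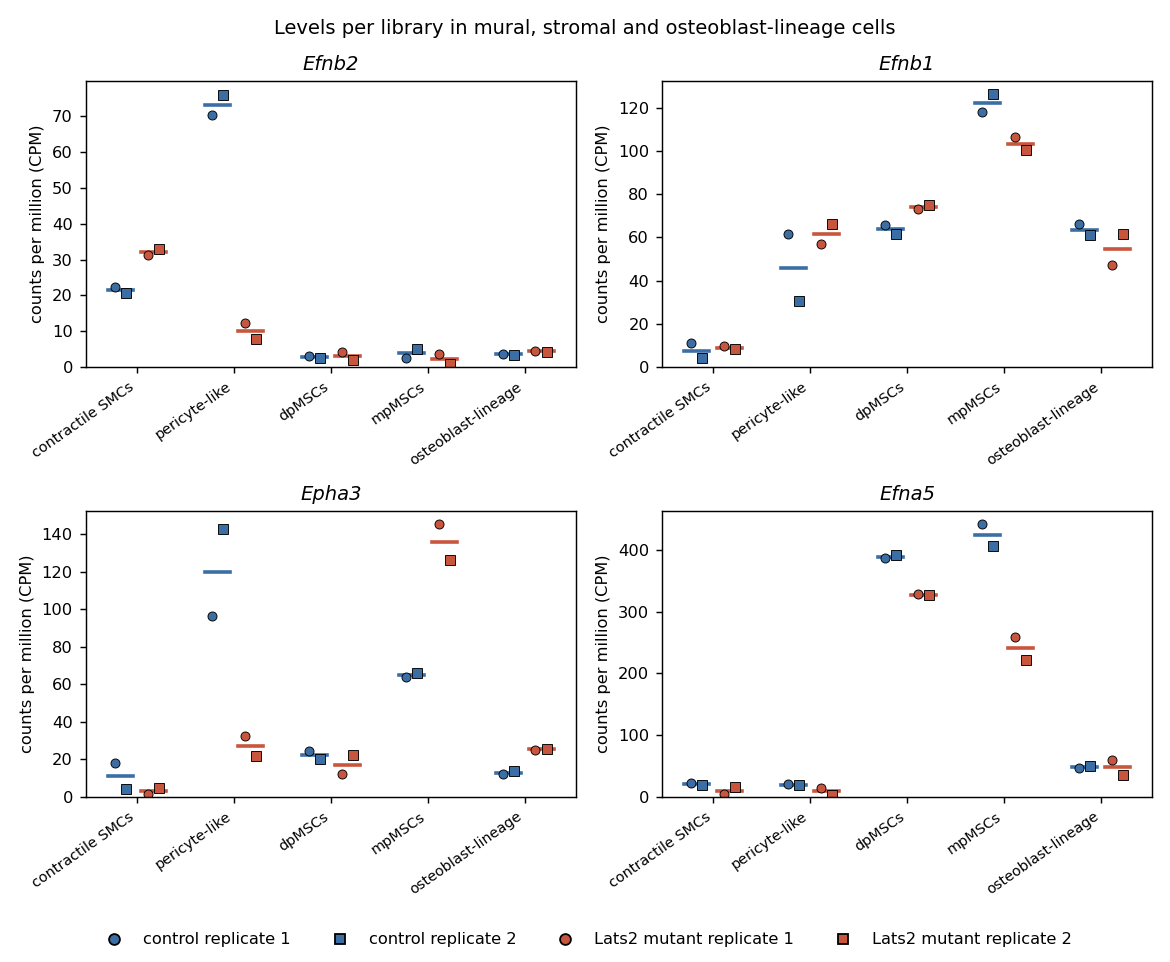
CPM of Efnb2, Efnb1, Epha3 and Efna5 in mural subtypes, dpMSCs, mpMSCs and osteoblast-lineage cells, with a point for each library and a bar for the mean of the 2 libraries of a genotype. Epha3 is lower in mutant pericyte-like cells and higher in mutant mpMSCs and osteoblast-lineage cells.

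Among stromal cells, Epha3 and Efna5 changed in the metaphyseal mesenchymal stromal cells (mpMSCs, the Postn+ and Limch1+ cells), where 2 of 7 tested members and 15.1% of all genes were called. Epha3 was at 145 and 126 CPM in the mutants against 63.7 and 66.1 in the controls (1.13 ± 0.139, adjusted p = 1.97e-05, edgeR). Efna5, one of its ligands, was at 259 and 222 against 441 and 406 CPM (-0.75 ± 0.108, adjusted p = 0.000103). The genotypes did not overlap for either gene, and both calls were kept in all 12 alternatives. Markers of mpMSCs summed to 5976 and 5190 CPM in the mutants against 9545 and 8235 in the controls, and markers of other cells differed too, with sums of mural ones at 648 and 689.8 against 418 and 479 CPM, osteoblast ones at 2813 and 3299.7 against 4446 and 4505 and chondrocyte ones at 547 and 488 against 354 and 369.6. The part of these differences was not tested. Efnb1, at 107 and 100.3 against 118 and 126 CPM, was not called (-0.17 ± 0.1296). Neither were Epha4 (-0.46 ± 0.412), Ephb4 (-0.29 ± 0.254), Efna1 (0.0897 ± 0.322) and Epha2 (-0.0613 ± 0.202).

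In dpMSCs (the Adipoq+ and Lepr+ cells of the marrow), all 10 members passed the filter and 2 were called, where 17% of all genes were. Efna5 was at 329 and 326 CPM against 386 and 391, lower by a small amount (-0.21 ± 0.0509, adjusted p = 0.0196, edgeR), a call lost with DESeq2 and without control replicate 1 or control replicate 2. Efnb1 was at 73.3 and 74.9 against 65.9 and 61.8 CPM (0.26 ± 0.0779, adjusted p = 0.0467), and was lost in 9 of 12 alternatives, among them leaving out any 1 of the 4 libraries (0.21 to 0.30) and the fit with replicate number as a block (adjusted p = 0.0506). DESeq2 called no member in these cells, where it called 8.12% of all genes. Of the members not called, Epha2 gave 0.95 ± 0.305 (adjusted p = 0.0585, edgeR), Epha4 0.57 ± 0.357, and Efnb2, Ephb2, Ephb3, Ephb4 and Efna1 between -0.0947 and 0.22. Epha3 gave -0.32 ± 0.216 there, at 11.9 and 22.0 against 24.5 and 20.1 CPM, so its rise in mpMSCs was not seen in dpMSCs. The difference between the classes was not tested. In dpMSCs Adipoq was at 1765 and 1747 CPM in the mutants against 1231 and 1243 in the controls. Lepr was at 1636 and 1689 against 1912 and 1867 CPM. Estimated free RNA was 1.99% and 1.92% against 6.69% and 7.14%. The part of these differences was not tested.

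Osteoblast-lineage cells (Bglap, Phex and other bone matrix genes) had 1 of 10 members called, where 6.49% of all genes were. Epha3 was at 24.9 and 25.7 CPM in the mutants against 12.0 and 13.5 in the controls (0.93 ± 0.158, adjusted p = 0.00428, edgeR), with no overlap, and was called in all 11 alternatives in which it was tested. Osteoblast markers summed to 131511 and 112395 CPM in the mutants against 153509 and 149773 in the controls, and median UMIs per cell were 9132 and 11825 against 15707 and 16562, differences whose part in the result was not tested. Efna1 was at 17.3 and 21.9 against 11.3 and 13.3 CPM (0.63 ± 0.181, adjusted p = 0.0619). Efnb2 and Ephb4, the pair known from osteoclast and osteoblast contact, were at 3.48 to 4.58 and at 4.32 to 7.18 CPM in osteoblast-lineage cells of the 4 libraries, and neither was called. The other members ran from -0.27 (Efnb1) to 0.43 (Ephb3).

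Of the other 12 ephrins and Eph receptors, 4 were tested in ECs and 2 were called, where 33.2% of all genes were. Ephb1, an ephrin-B receptor, was at 24.6 and 25.7 CPM in mutant ECs against 53.4 and 40.7 in control ECs (-0.80 ± 0.138, adjusted p = 0.00184, edgeR), and fell in arterial ECs (11.5 and 11.9 against 58.6 and 31.8 CPM, -1.899 ± 0.325, adjusted p = 0.00109) and mpECs (25.97 and 38.5 against 82.1 and 82.5 CPM, -1.21 ± 0.258, adjusted p = 0.000559). In mpMSCs it was at 16.7 and 30.8 CPM in the mutants (19 and 39 UMIs) and at 1.64 and 1.58 CPM in the controls (4 UMIs each), and in dpMSCs at 1.72 and 3.40 CPM (6 and 13 UMIs) and at 0.45 and 0.37 CPM (5 and 4 UMIs). In mpMSCs it passed the count filter through the mutant libraries, so both are given as levels only. Efna2 was higher in mutant bmECs, at 29.6 and 39.5 against 9.67 and 6.59 CPM (2.15 ± 0.293, adjusted p = 0.00238), and across all ECs (1.30 ± 0.224, adjusted p = 0.00185). Ephb6 was lower in dpMSCs (-1.41 ± 0.436, adjusted p = 0.0498), on 3 to 42 UMIs per library, a call lost in 9 of 11 alternatives. The Ephb1 call in mpECs was lost with 1 more subtype marker (-0.44).

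Forward signalling genes, the adaptors, exchange factors and kinases downstream of Eph receptors, were also counted. Across mutant ECs all 22 listed genes were tested and 14 fell, the other 8 not being called, where 33.2% of all genes were called (median log2 fold change -0.278, against 0.006 over all genes). Vav3 fell furthest, at 143 and 138 CPM against 439 and 390.3 (-1.47 ± 0.0821, adjusted p = 2.91e-06, edgeR), with Vav2 (-0.92 ± 0.1496, adjusted p = 0.0014) and Anks1 (-0.84 ± 0.0984, adjusted p = 0.000232). When a count in 20% of cells was also required, 59.4% of all genes tested across ECs were called. With DESeq2, which called 18% of all genes there, the calls of Abl2, Chn1, Chn2, Itsn1, Rasa1 and Sipa1l1 were lost. Vav2 was called in none of the EC subtypes. The part of the smaller bmEC share of mutant ECs in the pooled count across ECs was not tested. In mpECs 6 of 16 fell (27.1% of all genes called), led by Vav3 (-1.54 ± 0.167), Inppl1 (-1.33 ± 0.358) and Anks1 (-0.90 ± 0.202). The Inppl1 call was lost with DESeq2 and without mutant replicate 2, and its value ran from -1.82 to -0.10 over all alternatives. DESeq2 also lost the Anks1 call there. In bmECs 4 of 19 fell (9.4% of all genes called), led by Vav3 (-0.80 ± 0.1197), Arhgef15 (-0.76 ± 0.131) and Kalrn (-0.55 ± 0.114). In arterial ECs 3 of 19 fell (Vav3, Anks1 and Fyn), a share near the 16.3% of all genes. DESeq2 lost the Vav3 and Anks1 calls there. In ungated ECs 6 of 17 fell (18.1% of all genes called), led by Chn2 (-1.39 ± 0.238). Vwf+ ECs had 1 of 18 called (2.26% of all genes), and there Vav3 was higher, at 56.1 and 50.2 against 22.2 and 15.6 CPM (1.49 ± 0.310, adjusted p = 0.0298). That call was lost with 1 more subtype marker and without mutant replicate 1, mutant replicate 2 or control replicate 2 (0.97 to 1.78 over all alternatives). Its effect differed from the other subtypes there (2.50 ± 0.299, adjusted p = 8.23e-05) and in mpECs (-1.55 ± 0.187, adjusted p = 5.36e-05). With 1 more subtype marker required, none of the mpEC calls in the signalling lists was kept, nor the differences between subtypes of Vav3 and Dab2 (Vav3 in mpECs -0.77). That setting called 0.99% of all genes in mpECs. For the differences it called 0.225% in mpECs and 0.378% in Vwf+ ECs.

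In control vessels 13 of 19 forward genes were higher and 2 lower in bmECs than in the mean of the other gated subtypes, where 28.6% of all genes were called (median 0.535, against -0.003 over all genes), led by Vav3 (2.63 ± 0.102, adjusted p = 4.42e-13, edgeR) and Vav2 (1.42 ± 0.247). In arterial ECs 2 were higher and 5 lower (21.6% of all genes called). Mural cells had 4 higher and 3 lower of 18 (30.7% of all genes called, Fyn 0.86 ± 0.153), and pericyte-like cells 1 higher and 1 lower of 17 (18.8%). In dpMSCs 1 was higher and 6 lower of 19 (17%), in mpMSCs 1 higher and 3 lower of 18 (15.1%, Vav3 -1.81 ± 0.366), and in osteoblast-lineage cells 2 lower of 19 (6.49%). In contractile SMCs none of 15 was called with edgeR, where 6.12% of all genes were.

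Reverse signalling and shedding genes, of which 15 of 16 listed were in the tables, were counted the same way. Across ECs 1 of 12 rose and 3 fell (median -0.157), a share near the 33.2% of all genes: Dab2, an endocytic adaptor of ephrin-B, was at 169 and 186 CPM against 375 and 364 (-0.96 ± 0.0798, adjusted p = 2.93e-05, edgeR), Rhbdl2, a membrane protease, rose (0.85 ± 0.218) and Rgs3, which binds ephrin-B, fell (-0.48 ± 0.0784). In mpECs Dab2 (-1.38 ± 0.162) and Rgs3 (-0.66 ± 0.171) fell and Adam12, a metalloprotease, rose (0.74 ± 0.183), 3 of 7 in all where 27.1% of all genes were called. The Adam12 call was lost in 4 of 13 alternatives, with values from 0.37 to 1.06 over all of them. The Rgs3 call was lost in 4 of 13 as well, and DESeq2 lost both. Across all ECs the Rhbdl2 call was lost with DESeq2 and without control replicate 2. Dab2 fell more in mpECs than in the other gated subtypes (-1.17 ± 0.166, adjusted p = 0.000236) and its effect in Vwf+ ECs, where it was not called, was above the mean of the others (0.82 ± 0.185, adjusted p = 0.0149). Among the other EC classes, 2 of 6 fell in arterial ECs (Dab2 and Rgs3, 16.3% of all genes called). The Dab2 call there was lost with DESeq2 and without control replicate 1. In ungated ECs 1 rose and 2 fell of 6 (18.1%, Dab2 -1.26 ± 0.189). None was called of 8 in bmECs (9.4%) or of 6 in Vwf+ ECs (2.26%). In control vessels Adam12 (2.55 ± 0.107), Dab2 (1.47 ± 0.0899), Nck2 and Sdcbp were higher in bmECs, 4 of 7 (28.6% of all genes called), while in arterial ECs 1 was higher (Rgs3) and 2 lower (Adam12 and Dab2, 21.6%). Across mural cells 4 rose and 1 fell of 11 (30.7% of all genes called), led by Grip2 (-1.78 ± 0.153) and Rgs3 (1.56 ± 0.144). In contractile SMCs Adam12 (-1.68 ± 0.412) and Grip2 (-0.59 ± 0.171) fell, 2 of 6 (6.12%). There the Grip2 call was lost in 8 of 12 alternatives, among them DESeq2 and the replicate block. The Adam12 call in contractile SMCs was lost in 3 of 10, among them free RNA subtracted. Pericyte-like cells had Rgs3 higher (1.02 ± 0.192) and Adam12 lower (-1.32 ± 0.132) of 9 (18.8%), dpMSCs had Grip2 higher (2.28 ± 0.441) and Adam12 lower (-0.24 ± 0.0497) of 14 (17%), mpMSCs had Adam12 lower (-0.99 ± 0.0956) of 9 (15.1%), and in osteoblast-lineage cells none of 12 was called with edgeR (6.49%).

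As a description of likeness across classes, log2(CPM + 1) was correlated over 52 sums of the 13 classes in the 4 libraries, which share libraries and depth, among 13276 genes. The genes nearest to Efnb2 were Efr3b (Pearson's r = 0.912), E230020D15Rik (0.899), Galnt18 (0.897), Tmem184b (0.895) and Plpp1 (0.884). Those nearest to Ephb4 were Ralb (0.953), Tbkbp1 (0.945), Plk2 (0.935), Card10 (0.934) and Cyp2d22 (0.932). Among the 10 genes, Efna1 (0.810) and Epha4 (0.798) were nearest to Efnb2, and Efna1 (0.870) to Ephb4.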

How the data were processed

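Cells were captured with 10x 3′ V3 chemistry, with 2 mutant and 2 control libraries. The authors trimmed reads with cutadapt 3.5 and deposited unfiltered expected counts per barcode from STARsolo 2.7.10a (reads of several genes shared by expectation maximisation, exons and introns together, GRCm39, GENCODE M26 with reporter sequences). No test from the deposit was used.

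Barcodes were kept with no fewer than 1000 UMIs and 800 features, a mitochondrial share up to 15%, a hemoglobin share up to 5%, and a complexity (log features over log UMIs) from 0.8 upward. A barcode joined the class with most of its 12 markers detected, at least 4, if the next class had no more than 0.75 of that number; this limit served in place of a doublet caller. EC gates needed 2 arterial, 3 sinusoidal, 2 metaphyseal or 2 Vwf-type markers. Gate limits were set on cell numbers and marker levels, and the ungated class was added after the data were seen. The share of free RNA was the hemoglobin share of a class over that of barcodes with at most 100 UMIs.

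Expected counts were summed per class and library, rounded and tested with edgeR 4.0.16 (TMM, filterByExpr, quasi-likelihood, Benjamini-Hochberg over all genes of a class, called at 0.05), with DESeq2 1.42.0 as an alternative. Other alternatives were no count filter, a count in 20% of cells, 6 class markers, 1 more subtype marker, looser or stricter barcodes (2000 UMIs, 10% mitochondrial), free RNA subtracted, the replicate number as a block, and each library left out. Subtype contrasts and differences between subtypes had the library as a term, so their p-values rest on 2 and 4 libraries. SE is the fold change over the root of F. The fits were tested on simulated data. An exact permutation of 2 against 2 libraries was not used, since it cannot reach 0.05. Non-overlap between genotypes was not counted over all genes and is no test. P-values of the genotype effect within a class measure the spread between these libraries. Those of subtype contrasts and of differences between subtypes measure the scatter left after the library term.

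The 10 genes, lists and gates were chosen with earlier results of these data known. The rule covered all 10 genes in the classes where they were tested (given as a range where many were not called), the other ephrins and Eph receptors called, up to 3 genes per class with the largest change past the threshold in the signalling lists, and the 5 genes most like Efnb2 and Ephb4 among genes of at least 10 CPM on average in a class. Genotype was not tested in chondrocytes, fibroblasts and hematopoietic cells.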

Additional observations from a re-analysis of the deposited data

Results flagged for a closer look

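The effect of the genotype differed between EC subtypes, by a test of the difference itself, for 4 results. In mpECs the effect was below the mean effect in the other 3 gated subtypes for Efnb1 (-1.19 on the log2 scale), Efnb2 (-1.10) and Ephb4 (-0.81). In bmECs the effect on Efnb1 was above that of the other 3 (0.89). The mpEC values and the bmEC value of Efnb1 are parts of the same contrast over 4 subtypes and are not independent of each other. Leaving out control replicate 2, a fit with 1 control library, took away all 4 calls. So did 1 more subtype marker, which left 17 and 18 mutant mpECs. With that marker 0.225% of all genes were called for the difference in mpECs and 0% in bmECs. The mpEC differences of Efnb2 and Ephb4 were also lost without mutant replicate 2. The bmEC difference of Efnb1 was also lost with DESeq2, without mutant replicate 2 and without control replicate 1.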

How the results depend on the processing

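Of the 43 calls on the 10 genes, 26 were kept in every alternative run for them and 17 were lost in at least 1, while 16 pairs of a gene and a class not called were called in at least 1. Of 120 calls on the signalling genes and the other ephrins and Eph receptors, 59 were kept in every alternative and 61 lost in at least 1, and none reversed. The lost ones included all 10 in mpECs with 1 more subtype marker, where 0.99% of all genes were called. No call reversed but that of Epha4 in mpECs, which was 0.12 with 1 more subtype marker. Among values not called, Epha3 in dpMSCs ran from -0.87 without mutant replicate 2 to 0.0154 without mutant replicate 1, and Efna5 in osteoblast-lineage cells from -0.51 without mutant replicate 1 to 0.27 without mutant replicate 2, against -0.32 and -0.11 with all libraries; the cause was not tested. Calls in mural classes numbered 7, and 3 when a count in 20% of cells was also required, since fewer genes were then tested. Calls in stromal and osteogenic classes numbered 5, and 3 with DESeq2. Calls of a difference between EC subtypes numbered 4, and 0 with 1 more subtype marker, where 0% to 0.621% of all genes were called. Leaving out a library gave 12 to 17 endothelial calls (16 with all), 6 to 7 mural, 4 to 7 stromal and 0 to 5 calls of a difference between subtypes, where 0 came without control replicate 2 and 1 without mutant replicate 2. The control contrasts were not refitted without a library, which leaves no residual spread.

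The fit with the replicate number as a block gave 16 endothelial, 7 mural and 6 stromal calls. Nothing in the labels pairs libraries by number, and deviations of libraries of the same number correlated at -0.111 to 0.224 across genes within a class. Under the block Efnb1 in dpMSCs was lost and Epha2 in dpMSCs (0.93) and Efna1 in osteoblast-lineage cells (0.61) were gained. Depth limits the classes with few cells: 55 and 57 control pericyte-like cells, and 449159 to 450916 UMIs in control Vwf+ ECs.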
